A study of Mus musculus with 30 samples.

Results

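The class II genes of the mouse major histocompatibility complex were followed in single fast muscle fibres. They are Cd74, H2-Aa, H2-Ab1, H2-Eb1, H2-DMa, H2-DMb1 and Ciita, and every non-control array probe that the files name for 1 of them was taken. That gave 8 probes for 7 genes, out of 55681 probes on the array, with 2 probes for H2-Ab1. All 8 were among the 33164 probes kept for testing, which had to be well above background (a call the scanner software makes for each spot) on at least 3 arrays of a group. The probes for H2-Eb1, H2-Aa and H2-DMb1 and the second H2-Ab1 probe passed only through the fibres given MCU. The family was chosen because members had been seen to be high in fibres given MCU, so those differences from wild type are described here without a test.

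Class II molecules are paired alpha and beta chains that hold peptides on the cell surface for CD4 T cells to read. The invariant chain Cd74 fills the groove of new molecules, and H2-DM then helps exchange its remnant for peptides from digested proteins. The coactivator Ciita switches the whole set on, constitutively in macrophages, dendritic cells and B cells, and after interferon gamma in many other cells. Healthy muscle fibres show little class II, and in inflammatory muscle disease fibres can display it.

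The study put 30 muscle fibres, each isolated by itself from the extensor digitorum longus (a leg muscle of fast fibres) of male CD1 mice, on 1-colour arrays of 60-base probes. Muscles of 8-week-old mice were injected with adeno-associated virus carrying the mitochondrial calcium uniporter Mcu (3 fibres at day 7, 4 at day 14), a short hairpin against Mcu (3 and 4) or a control vector (4 and 4), and untreated wild-type fibres were matched to each day (4 and 4). The labels give the control vector both as a hairpin against luciferase and as a virus with no insert. Injected fibres were picked by their green fluorescent reporter and by a qPCR test of Mcu, so the fibres are a selection, and the animals behind them are not named. Every p-value therefore weighs a difference against fibre-to-fibre spread. Where fibres of a group came from 1 animal, spread between animals is missing from it, and p-values may be too small.

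Each array's level was set against that array's 75th percentile of signal, so 0 on the log2 scale is a probe as bright as that percentile. The percentile itself ran from 82.5 to 136 signal units, and an array had 49.4 to 59.5% of its probes well above background. Pvalb, which encodes parvalbumin, the calcium buffer of fast fibres, was well above background in all 30 fibres and lay between 9.64 and 10.91 in 29 of them. The third silenced fibre of day 14 stood apart, with Pvalb at 6.37, Myh4, the fastest myosin heavy chain, at 0.38 and Actn3, the fast-fibre alpha-actinin, at -2.28, against 5.95 to 7.98 and 6.11 to 8.09 in the other 29. Its Myh1, another fast myosin, was 7.53, within their range. Silencing results are given with and without it where it changes them. Mcu itself read 3.62, 3.16 and 3.11 in the MCU fibres of day 7 and 6.40, 5.88, 6.68 and 6.56 in those of day 14. Wild-type fibres read 2.50 to 2.94 at day 7 and 2.16 to 2.81 at day 14. Mcu was 1.30, -0.58 and 0.80 in the silenced fibres of day 7 and -1.12, 0.01, -1.68 and 0.76 in those of day 14. MCU and wild-type fibres of a day shared a slide, as did silenced and control fibres. Control and wild-type fibres lay on different slides, so slide and group cannot be told apart there. The fibres of day 7 and day 14 also lay on different slides, so slide and day cannot be told apart in any comparison between days. Wild-type fibres were untreated, so in MCU against wild type the injected virus and its Mcu cannot be told apart.

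The 2 H2-Ab1 probes are shown because they read nearly the same stretch of transcript but were well above background on 27 and 8 of the 30 arrays. They start at transcript bases 1125 and 1134, at chr17:34406296-34406355 and chr17:34406305-34406363 in the files' build mm9. They overlap by 51 bases, with 1 base of difference. The capital below marks that base in the 24 bases around it. The difference is T51C, counted from 1 at the 5′ end of the first probe.
H2-Ab1 probe at base 1125: caaataaacgagacTcagactctg
H2-Ab1 probe at base 1134: caaataaacgagacCcagactctg

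The H2-Aa probe is shown whole because H2-Aa passed from dim in every wild-type fibre of day 7 to clear in every MCU fibre. It starts at transcript base 227 and lies at chr17:34421285-34421344.
H2-Aa probe: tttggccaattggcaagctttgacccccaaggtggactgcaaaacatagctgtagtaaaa

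The probes of 3 further members lie at chr17:34453075-34453134 for H2-Eb1, chr17:34274300-34274863 for H2-DMa (the probe spans a splice junction) and chr17:34297109-34297168 for H2-DMb1. The files do not say which exon or untranslated region a probe reads.

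Class II promoters share short boxes upstream of the transcript start, and the box region is shown for the 3 members whose promoter window held such matches. The windows are 300 bases around the start, from RefSeq, build GRCm38.p6. They were found for H2-Aa, H2-Eb1, H2-DMa and H2-DMb1 among the members. The motifs were spelled out with these sequences in view and searched on both strands: TGATTGG, the inverted CCAAT of the Y box, AACNNATG, a form of the X box, and TGACGTCA, the cyclic AMP response element. Capitals mark the matches.
H2-Aa: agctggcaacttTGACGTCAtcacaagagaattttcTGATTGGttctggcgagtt
H2-Eb1: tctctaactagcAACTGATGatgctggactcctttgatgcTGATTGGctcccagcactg
H2-DMb1: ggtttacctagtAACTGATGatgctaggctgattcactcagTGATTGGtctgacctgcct

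These stretches lie at chr17:34287855-34287909 (minus strand), chr17:34305766-34305824 (plus) and chr17:34153087-34153146 (plus). In H2-Eb1 and H2-DMb1 the AACNNATG match stands 20 and 21 bases before TGATTGG. In H2-Aa the TGACGTCA match stands 16 bases before it. Of 32851 promoter windows, 7.82% held TGATTGG, 8.86% held AACNNATG, 1.79% held TGACGTCA, and 0.785% held both of the first pair. The H2-DMa windows held none of these letters. Among the class II genes that are no members, H2-Ob, H2-DMb2 and H2-Eb2 held the first pair too, and H2-Oa held TGATTGG alone.

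At day 7 the fibres given MCU held every class II probe well above background, 8 of 8 in each of the 3 fibres. Wild-type fibres of day 7 had 4 or 5 of the 8, the control-vector fibres of both days 3 or 4, and the silenced fibres 3 to 6. At day 14 the MCU fibres had 6, 5, 6 and 4. In bulk RNA of a fibre with whatever adheres to it, more cells of a type and more RNA per cell cannot be told apart.

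Cd74, the invariant chain, was 2.06, 2.62 and 3.93 in the 3 MCU fibres of day 7. The 4 wild-type fibres of that day read -1.82, -2.23, -2.21 and -2.22, so the groups lay far apart. The fitted difference was 4.99 ± 0.44 (SE), a 31.8-fold higher level. At day 14 the MCU fibres read 1.04, 0.12, -1.73 and 0.27 and the wild-type fibres -1.79, -2.50, -1.50 and -1.62. Here 3 of the 4 MCU fibres stood above every wild-type fibre and the third lay among them, for a difference of 1.78 ± 0.40.

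Ordered by mean, Cd74 was highest in the MCU fibres of day 7, at 2.87 ± 0.96 (SD, n = 3), then in those of day 14, at -0.08 ± 1.18 (SD, n = 4), with no overlap between them. The next group, the silenced fibres of day 14, was at -1.62 ± 0.19 (SD, n = 4) and overlapped the MCU fibres of day 14 through 1 fibre. Below it came the silenced fibres of day 7 at -1.74, wild type of day 14 at -1.85, control vector of day 14 at -2.03, wild type of day 7 at -2.12 and control vector of day 7 at -2.69 as means. Each of these overlapped its neighbour in the order except the last pair, whose fibres ran from -2.23 to -1.82 in wild type and from -3.38 to -2.28 in controls.

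**Figure D1:**
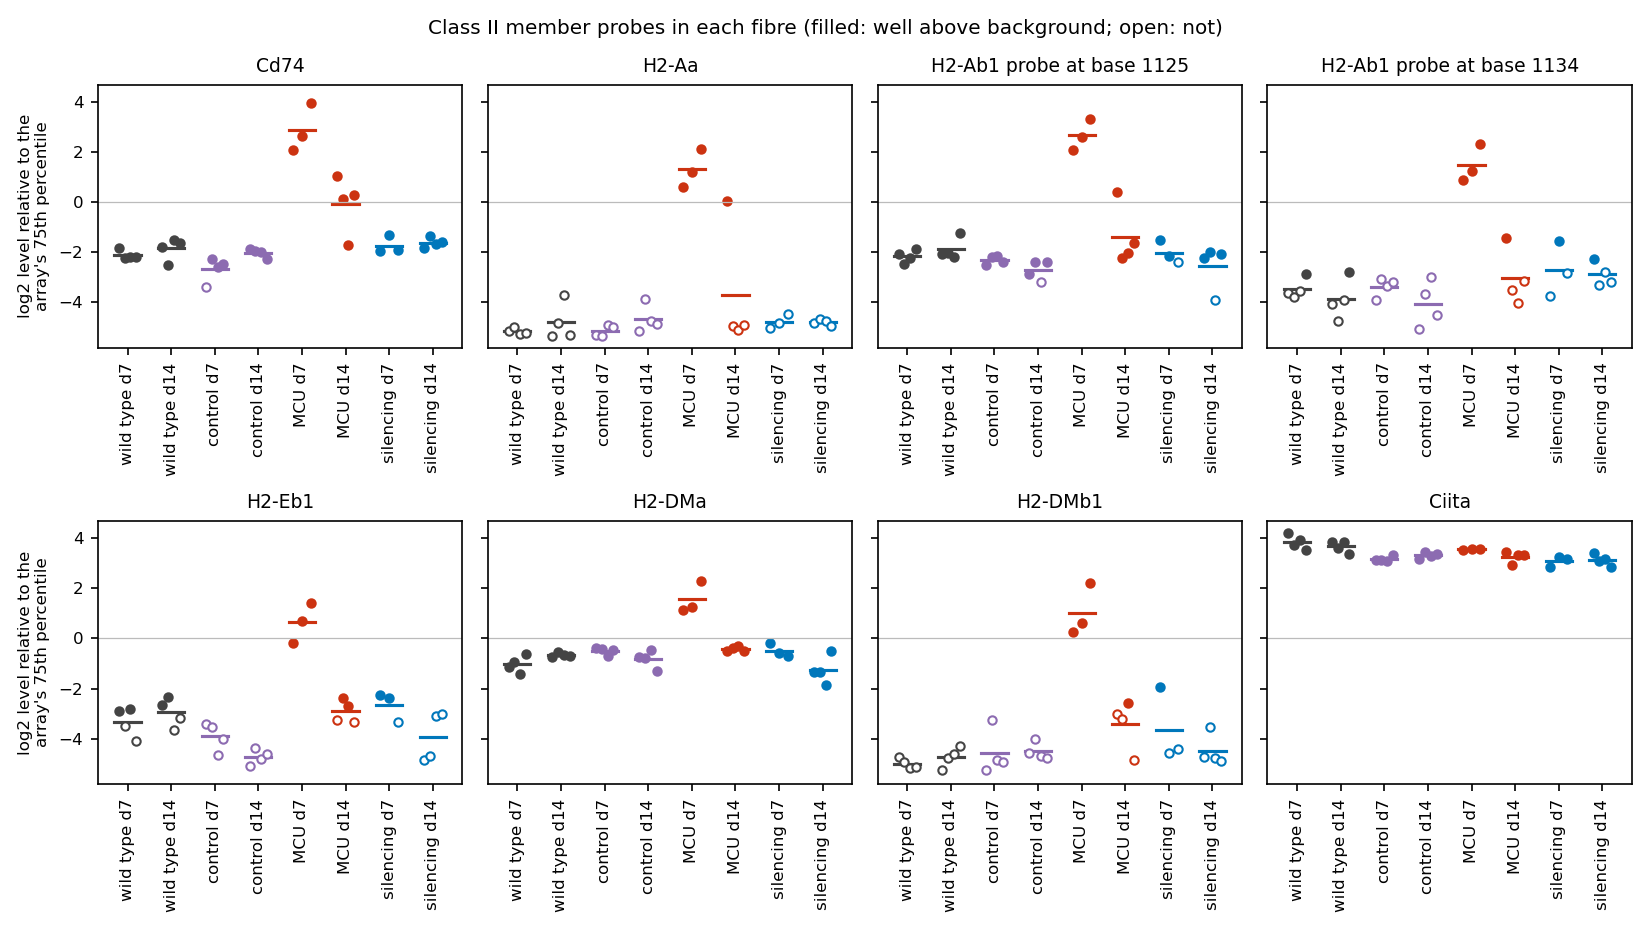
Log2 level of each class II probe relative to the array's 75th percentile (y axis) in the fibres of the 8 groups (x axis; d is day), 1 point a fibre, filled where well above background, with a line at each group's mean. The 3 MCU fibres of day 7 stand above all others for 7 probes, 1 MCU fibre of day 14 stands high for H2-Aa and both H2-Ab1 probes, and Ciita is bright everywhere.

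Detection of the classical alpha and beta chains differed from gene to gene. H2-Aa, the I-A alpha chain, was well above background on 4 of 30 arrays. It read 0.61, 1.21 and 2.12 in the MCU fibres of day 7 against -5.26 to -4.99 in wild type, where all 4 spots were dim. Against the dimmest signal still called well above background, MCU was at least 23.6-fold higher. The remaining array was that of the first MCU fibre of day 14, at 0.03, while the other 3 of that group were dim at -4.93, -5.10 and -4.90.

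H2-Ab1, the I-A beta chain, rose with it. Its first probe, at base 1125, read 2.09, 2.57 and 3.29 in the MCU fibres of day 7 and -2.48 to -1.87 in wild type, a difference of 4.83 ± 0.47 (SE). On day 14 the first MCU fibre read 0.38 and the others -2.23, -2.04 and -1.64, against -2.19 to -1.24 in wild type. The second probe, at base 1134, read 0.89, 1.25 and 2.29 in the MCU fibres of day 7. It was dim in 3 of the 4 wild-type fibres of that day, which ran from -3.79 to -2.87. Of the day 14 fibres with MCU only the first was above background, at -1.43, and of the wild-type fibres of that day 1 was, at -2.81. The differences at day 7 were 4.83 and 4.94, so the probes gave like differences there.

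H2-Eb1, the I-E beta chain, read -0.19, 0.69 and 1.42 in the MCU fibres of day 7. Wild type gave -2.91, -3.50, -2.81 and -4.08 there, with 2 of 4 spots above background, and the difference was 3.96 ± 0.46 (SE). On day 14 the MCU fibres (-3.26, -2.39, -2.68 and -3.32) and the wild-type fibres (-2.65, -2.34, -3.67 and -3.16) overlapped throughout. The first MCU fibre of day 14, high for both I-A chains, was not above background for this I-E chain.

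The peptide-loading pair split in how widely it was detected. H2-DMa, the alpha chain of H2-DM, was well above background in all 30 fibres. It read 1.12, 1.25 and 2.29 in the MCU fibres of day 7 against -1.41 to -0.63 in wild type, a difference of 2.59 ± 0.27 (SE). At day 14 it was the 1 probe whose 4 MCU fibres (-0.50, -0.39, -0.32 and -0.49) all stood above wild type (-0.75 to -0.55), by 0.25 ± 0.25. That gap was as large as its own error.

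H2-DMb1, the beta chain, was well above background on 5 arrays. It read 0.25, 0.61 and 2.22 in the MCU fibres of day 7 and -5.17 to -4.73, all dim, in wild type, which puts MCU at least 19.3-fold higher. The other detections were the third MCU fibre of day 14, at -2.59, and the first silenced fibre of day 7, at -1.95.

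The probe for Ciita, the coactivator, did not rise with the other 7. Its probe was well above background in all 30 fibres, from 2.85 to 4.20. Part of this probe is a simple repeat of 5 units. A run of 3 such units is shared by 11 other probes of the array. Over the 30 fibres those had a median correlation of 0.41 with it (range -0.21 to 0.84), where all kept probes had 0.03. The MCU fibres of day 7 read 3.51, 3.56 and 3.57 and wild type 4.20, 3.72, 3.91 and 3.51, a difference of -0.29 ± 0.16 (SE). On day 14 the MCU fibres read 3.44, 2.93, 3.33 and 3.33 and wild type 3.85, 3.60, 3.85 and 3.38, a difference of -0.41 ± 0.15. The order of the groups had both wild-type groups on top, at 3.84 ± 0.29 and 3.67 ± 0.22 (SD, n = 4 each), followed by the MCU fibres of day 7 at 3.55 ± 0.03 (SD, n = 3). Neighbours in the order overlapped except these MCU fibres and the next group, the control fibres of day 14, at 3.16 to 3.46.

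Of the 8 probes, 7 had all MCU fibres of day 7 above all wild-type fibres, where 3.8% of all kept probes did. At day 14 the count was 1 of 8, against 4.08% of kept probes. The median difference of the 8 was 4.88 at day 7 and 0.67 at day 14, and that of all kept probes was -0.01 and -0.03. With the normexp background correction and its offset of 50 signal units, which shrinks differences of dim probes, the day 7 differences were smaller, at 3.52 for Cd74, 2.66 for H2-Aa, 3.40 and 2.59 for H2-Ab1, 1.84 for H2-Eb1, 1.84 for H2-DMa and 2.30 for H2-DMb1. These comparisons chose the genes, and the counts are given as a description. Mcu was further above wild type at day 14 than at day 7, on different slides. How class II levels go with Mcu was not tested.

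**Figure D2:**
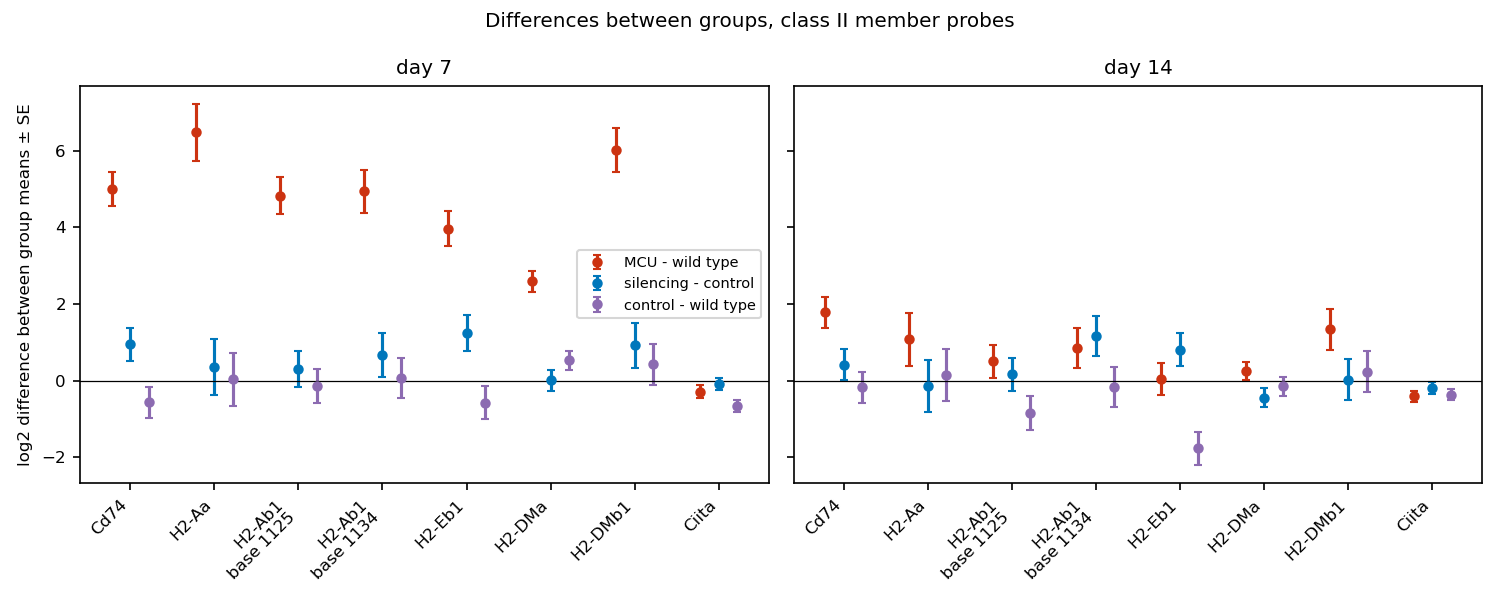
Log2 difference between group means (y axis; bars are SE) for the 8 class II probes (x axis) at day 7 and day 14, from 1 limma fit of all 30 arrays, for MCU minus wild type (red), silencing minus control vector (blue) and control vector minus wild type (purple). At day 7 the MCU difference runs from 2.59 for H2-DMa to 6.47 for H2-Aa (dim in wild type, so a measured value and not a fold) with Ciita at -0.29, and at day 14 it is at most 1.78, for Cd74.

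Macrophage transcripts were looked for in the same fibres, since macrophages carry class II. Lyz1, a lysozyme of phagocytes, Tyrobp, an adaptor of myeloid receptors, and Ctss, the protease that trims the invariant chain in antigen-presenting cells, were not above background in any of the 8 wild-type fibres. They were above it in the first MCU fibre of day 7, where Lyz1 read -1.52, Tyrobp -1.05 and Ctss 0.06. They were also above it in the first MCU fibre of day 14, at -1.62, -2.19 and -1.91. That second fibre is the 1 MCU fibre of day 14 with H2-Aa and both H2-Ab1 probes high.

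The second and the third of the MCU fibres of day 7 carried class II at higher levels than the first, with none of these transcripts above background. Lyz1 read -5.28 and -4.39 there, Tyrobp -3.22 and -3.98, and Ctss -5.32 and -5.17. Of 15 macrophage markers, 11, 10 and 9 were detected in the MCU fibres of day 7 and 7 to 10 in wild type. The counts were 11, 8, 9 and 8 in MCU fibres of day 14 and 9 to 11 in wild type. At day 7, C1qa was above background in 3 of 3 MCU fibres and 1 of 4 wild-type fibres. It was kept for testing only through MCU fibres. Aif1 was above background in 3 MCU and 2 wild-type fibres of that day and Fcer1g in 2 and 1. Lyz2, in 2 and 4, and Adgre1, in 0 and 1, went the other way. Itgam was bright in every fibre, near 8, and sets the summed level. Without it the 14 others summed to 27.9 to 29.8 times the percentile signal in the MCU fibres of day 7 and 26.3 to 29.5 in wild type. In fibres of day 14 the sums were 26.2 to 26.6 with MCU and 24.8 to 27.7 in wild type. Csf1r, at a mean of 4.63 in MCU fibres of day 7 and 4.65 in wild type, makes up most of these sums. They therefore cannot show whether the dimmer markers differ. Of the 11 macrophage genes kept for the tests, 0 passed the threshold against wild type on either day in limma, with 1 higher at an unadjusted p under 0.05 at day 7 and 1 lower at day 14.

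Markers of other leukocytes were checked by whole lists. Above background in none of the 30 fibres were 4 of 8 dendritic cell genes (Xcr1, Cd209a, Clec9a and Ccr7), 2 of 7 B cell genes (Ms4a1 is 1) and 2 of 8 T cell genes (Cd3d and Cd2). Others of these lists were above it in all 30 fibres, wild type included, namely Zbtb46 of dendritic cells, Pax5, Cr2 and Fcer2a of B cells, and Cd3e, Cd4 and Lck of T cells. Cd79b was above it in 29, Cd8a in 27 and Flt3 in 15. In limma 0 of 2 kept dendritic, 0 of 4 B cell and 0 of 4 T cell genes passed between MCU and wild-type fibres on either day, with 2 B cell genes lower at an unadjusted p under 0.05 at day 14 and none of the others past it. Fibroblast genes lay lower in MCU fibres of day 14 by a median of -1.95, with 3 of 4 at an unadjusted p under 0.05 and 0 passed. Across the 4 leukocyte lists, 16 markers were silent in every wild-type fibre. The first MCU fibre of each day had 2 of these, Lyz1 and Tyrobp, and the other 5 MCU fibres had none. Control-vector fibres had 0 to 2 and silenced fibres 0 or 1. Tyrobp was among them in the second and the fourth control fibres of day 7 and the third silenced fibre of day 14. Lyz1 was the marker in the third silenced fibre of day 7. Cd74 read -2.28, -2.49, -1.66 and -1.93 in these fibres.

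Leaving out the first MCU fibre of day 7 raised the differences from wild type to 5.40 for Cd74, 6.82 for H2-Aa, 5.11 and 5.23 for H2-Ab1, 4.38 for H2-Eb1, 2.80 for H2-DMa and 6.41 for H2-DMb1. It was the lowest MCU fibre of day 7 for each of these probes, so a rise had to follow. The count of probes with all MCU fibres of day 7 above wild type was 7 with and without it. Leaving out an MCU fibre cannot lower that count, so it is no test. At day 14, leaving out the first MCU fibre moved the first H2-Ab1 probe from 0.50 to -0.09. H2-Aa was then dim in every fibre of both groups, and the second H2-Ab1 probe in every MCU fibre, so no difference is given for them. Cd74 was 1.41 higher than in wild type without that fibre.

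**Figure D3:**
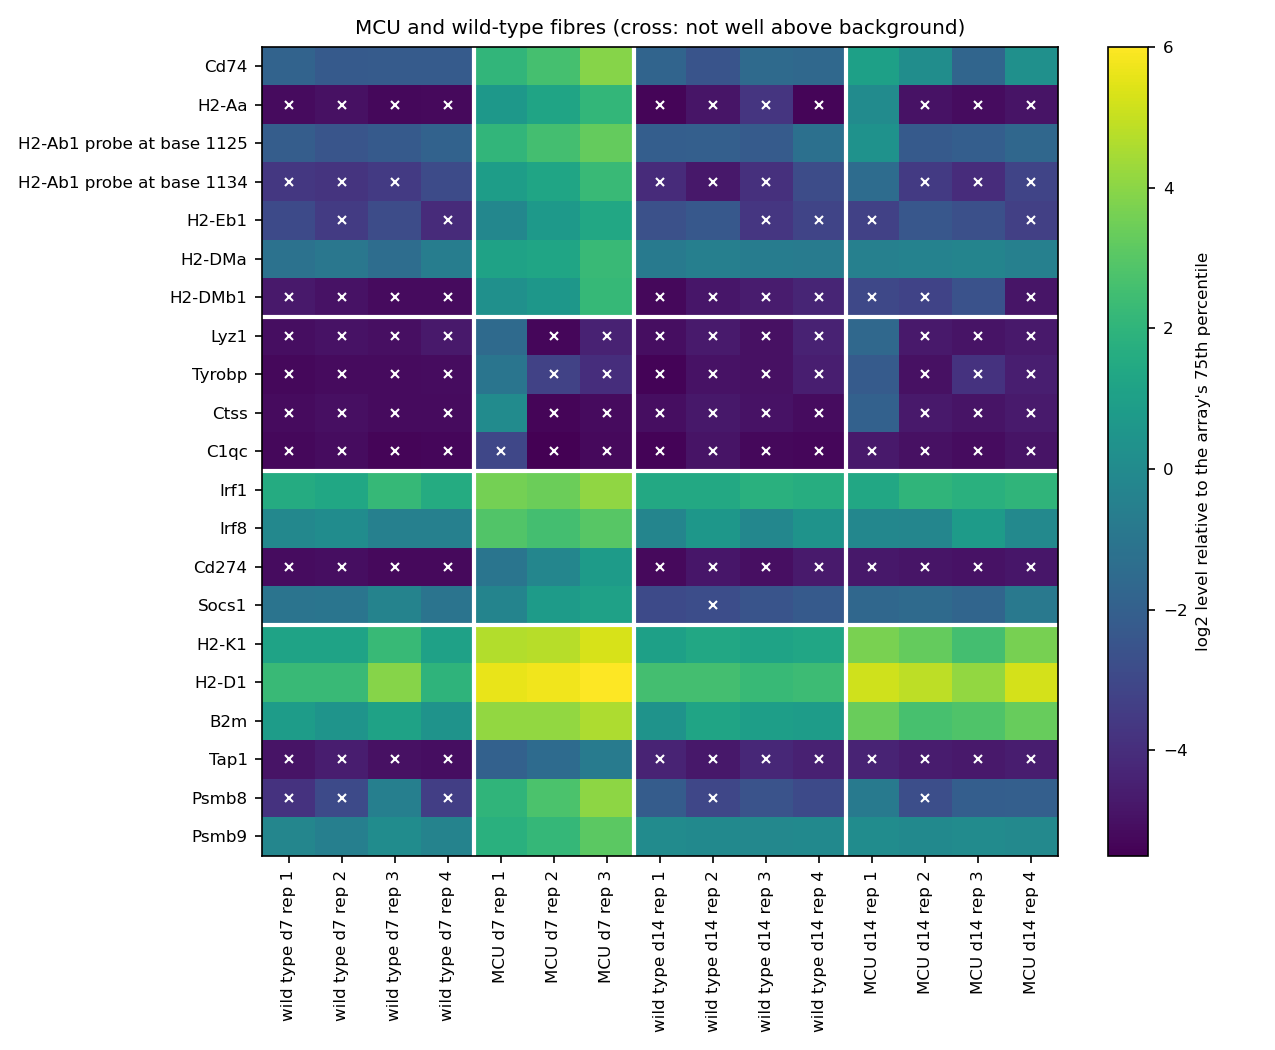
Log2 level relative to the array's 75th percentile (colour) of class II probes, myeloid genes, interferon-response genes and class I genes (rows) in the MCU and wild-type fibres of each day (columns; rep is replicate), with a cross where not well above background. The 3 MCU fibres of day 7 are bright for class II, class I and Cd274, and Lyz1, Tyrobp and Ctss are above background in only the first MCU fibre of each day.

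The 5 other gene symbols whose levels went most with Cd74 over the 30 fibres were Gm6034, H2-Aa, H2-Ab1, H2-T23 and Cep162. Their Pearson correlations were 0.91, 0.90, 0.89, 0.88 and 0.88, and 2 probes without a symbol ranked above the fifth. H2-T23 is a non-classical class I gene, whose probe may share signal with its close relatives. The fibres share slides and groups, and the 7 MCU fibres set these values. Over the 23 others the same correlations were -0.10, 0.33, 0.07, -0.18 and 0.05. Ciita had a correlation of 0.12 with Cd74 over the 30 fibres.

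Class I presentation, which shows peptides to CD8 T cells, was high in the same fibres. Of 12 class I genes kept for the tests, 8 passed the threshold as higher in MCU fibres of day 7 and none as lower, with and without the first MCU fibre of each day, where 0.482% of all kept probes were called higher. Tap1 was kept only through the MCU fibres and so had to differ, and without it the count was 7 of 11. H2-K1, a class I heavy chain, read 4.66, 4.75 and 5.32 against 1.10 to 2.26 in wild type. B2m, the class I light chain, read 4.14, 4.12 and 4.58 against 0.42 to 1.13. All 3 MCU fibres thus stood above every wild-type fibre for both chains. Psmb9, an immunoproteasome subunit, was 1.79, 2.14 and 3.11 against -0.53 to 0.10. Tap1, a subunit of the pump that feeds peptides to class I, read -1.92, -1.46 and -0.72 and was dim in all wild-type fibres, a gap of at least 3.69-fold. The third MCU fibre, the highest of the 3 for the 7 class II probes above wild type, was also the highest for these 4. Class I genes resemble each other, so a probe may also read relatives of the gene it is named for. The wild-type fibre with H2-K1 at 2.26 also carried Dcn, a fibroblast proteoglycan, at 2.61, and Pecam1, an endothelial adhesion molecule, at -0.10, both dim in the other 3, while its Cd74 was -2.21.

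At day 14, 3 of the 12 passed as higher, where 0.289% of kept probes were called higher. H2-K1 read 3.71, 3.30, 2.58 and 3.64 against 1.05 to 1.41 in wild type, and B2m 3.38, 2.66, 2.83 and 3.34 against 0.39 to 1.21. The heavy chain H2-D1 was the other, by 2.41. Psmb9 was back among wild type, at -0.08 to 0.08 against -0.15 to 0.07, and Tap1 was dim in all 4 MCU fibres. Class I chains thus stood high in the 3 MCU fibres of day 14 whose I-A chains did not.

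In the interferon gamma pathway, 2 of 10 kept genes passed as higher in MCU fibres of day 7. Irf8, an interferon-induced transcription factor, read 2.88, 2.56 and 3.03 against -0.50 to 0.11. Irf1, which acts on Ciita and class I promoters, read 3.61, 3.42 and 4.07 against 1.36 to 2.20, but a second Irf1 probe was 0.38 lower rather than higher (-0.38 on the log2 scale). Ifng itself was above background on 1 of 30 arrays, the first MCU fibre of day 14, at -3.46. That reading lay at the lowest signal well above background on that array, also -3.46. At day 14, 1 of the 10 passed as higher, Socs3, a feedback inhibitor of cytokine signalling, while Irf8 (-0.22 to 0.82 against -0.28 to 0.60) overlapped wild type.

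Cd274, the checkpoint ligand PD-L1 and an interferon gamma target, was above background in the 3 MCU fibres of day 7 alone, at -1.01, -0.21 and 0.80, at least 8.63-fold over wild type. It was kept for testing only through those fibres, so its difference is a description. Of the 8 costimulation and checkpoint genes on the array, 4 were above background in no fibre. Among these were Cd86 and Cd40, costimulators of professional antigen-presenting cells. Cd80, another such costimulator, was above it in all 30 fibres, wild type included.

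The factors that bind the class II boxes did not pass. Of 8 kept genes of the RFX and NF-Y complexes and their partners, 0 passed at day 7 or day 14 in the limma fit, with 0 and 1 at an unadjusted p under 0.05. Rfx5, which binds the X box, read -1.31, -1.27 and -1.29 in MCU fibres of day 7 and -2.84 to -1.28 in wild type. Of the 7 kept genes among other class II genes and peptide-supply enzymes, 0 passed on either day, with 1 at an unadjusted p under 0.05 on each. H2-DMb2, a second beta chain of H2-DM and a close copy of H2-DMb1, was not kept, and was above background in the first and the third of the MCU fibres of day 7, at -1.84 and -0.41.

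Silencing Mcu was tested against the control vector, a comparison that did not choose the genes. At day 7, 0 of the 8 probes passed an adjusted p of 0.05 in limma, where 12.7% of kept probes did, and 2 had an unadjusted p under 0.05, both higher. Cd74 read -1.98, -1.32 and -1.93 in silenced fibres and -3.38, -2.28, -2.61 and -2.49 in controls. The 3 silenced fibres stood above the 4 controls, by 0.95 ± 0.44 (SE), and limma gave an adjusted p of 0.153. H2-Eb1 read -2.26, -2.38 and -3.34 against -3.40, -3.52, -4.66 and -4.02, all 4 controls dim, for 1.24 ± 0.46 and an adjusted p of 0.0773. By measured values these were the 2 of 8 probes whose silenced fibres all stood above controls, as did 13.2% of kept probes. For H2-Eb1 the third silenced fibre was itself dim, and dim spots have no order, so its separation holds for 2 of 3 silenced fibres.

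At day 14, 0 of 8 passed, where 3.62% of kept probes did, with 1 at an unadjusted p under 0.05. That was the second H2-Ab1 probe, at -2.29, -3.32, -2.78 and -3.18 in silenced fibres and -5.08, -3.66, -2.99 and -4.50 in controls. The groups overlapped, and the difference was 1.16 with an adjusted p of 0.228 in limma, and 1.13 with 0.371 without the third silenced fibre. Cd74 read -1.83, -1.38, -1.66 and -1.61 in silenced fibres and -1.87, -1.98, -1.99 and -2.29 in controls, again all silenced fibres on top, by 0.41 ± 0.40 (adjusted p = 0.622). It was the 1 of 8 probes with this separation, which 4.64% of kept probes showed. None of the 8 passed the test of a difference in the silencing effect between days, where 3.92% of kept probes did, and 0 had an unadjusted p under 0.05.

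Over both days, 1 of 8 passed, H2-Eb1, which was higher by 1.02 ± 0.31 (SE; adjusted p = 0.0325 in limma), where 13.7% of kept probes passed and 7.83% passed as higher. It was above background in 2 of 7 silenced and 0 of 8 control fibres. With dim spots set to the array's lowest signal above background, the difference was 0.49 and the adjusted p 0.12. The call was also lost on leaving out any 1 of 7 fibres. They were the third control fibre of day 7 (adjusted p = 0.0669), the first and the third of day 14 (0.0605 and 0.0502), the first and the second silenced fibres of day 7 (0.077 and 0.0708), and the third and the fourth of day 14 (0.0702 and 0.0598).

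Some interferon genes were lower in silenced fibres than in controls. Over both days 3 of 10 passed as lower and 0 as higher, with and without the third silenced fibre of day 14, where 5.83% of kept probes were called lower. Jak1, a kinase of the pathway, fell by 1.16 (adjusted p = 0.0002044 in limma). Irf8 fell by 1.52 and Socs1, an inhibitor of the pathway, by 1.07. Of 12 class I genes, H2-D1 (fell by 0.83) and B2m (fell by 0.97) passed. Of the 7 other class II and peptide-supply genes 2 passed as lower, the lysosomal reductase Ifi30 (fell by 1.84) and the protease Lgmn (fell by 0.41). Without the third silenced fibre of day 14 it was 1, Ifi30. Of the 8 class II transcription factors 1 passed as higher, Rfxank (0.58), a subunit of the RFX complex. The macrophage marker Cd68 fell by 2.10 in the same comparison, with adjusted p = 0.005617, and C1qb by 0.52, of which Cd68 alone passed without that fibre. Summed without Itgam, the macrophage markers were 27.0 to 31.7 in the silenced fibres of day 7 and 26.1 to 28.0 in those of day 14. In the controls they were 27.4 to 29.9 and 27.4 to 32.8. Csf1r makes up most of these sums too, so they cannot show whether the dimmer markers differ. Their part in the result was not tested.

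The control vector was compared with wild type to see what an injected virus without Mcu goes with. At day 7, 1 of 8 probes passed, where 16.6% of kept probes did. Ciita read 3.11, 3.14, 3.08 and 3.34 in control fibres and 4.20, 3.72, 3.91 and 3.51 in wild type. All 4 control fibres were below all 4 wild-type fibres, by 0.67 (-0.67 ± 0.15 SE; adjusted p = 0.00337 in limma). Cd74 also had all control fibres below wild type, which made 2 of 8 probes, and 13.4% of kept probes did so. H2-DMa was 0.53 ± 0.25 higher, with an adjusted p of 0.14 in limma.

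At day 14, 1 of 8 passed, where 14.9% of kept probes did. H2-Eb1 read -5.09, -4.37, -4.81 and -4.59 in control fibres, all dim, and -2.65, -2.34, -3.67 and -3.16 in wild type, with 2 of 4 above background. The measured difference was -1.76 ± 0.43 (SE; adjusted p = 0.00725 in limma). With every control fibre dim and 2 wild-type fibres dim as well, no fold is given. The call was lost with dim spots at the lowest signal above background (adjusted p = 0.859). By measured values 2 of 8 probes had all control fibres below wild type, H2-Eb1 and the first H2-Ab1 probe (-3.19 to -2.40 against -2.19 to -1.24), as did 12.3% of kept probes, but the 2 dim wild-type spots of H2-Eb1 have no order against dim controls. Fibroblast genes lay lower in the same comparison, by a median of -1.97, with 3 of 4 at an unadjusted p under 0.05 and 0 passed. Dcn read -1.14, -4.79, 1.12 and 2.57 in the wild-type fibres and was dim in all 4 controls. The first and the second of these wild-type fibres held the H2-Eb1 signal, and Dcn was dim in the second. The part of these cells in the result was not tested. Ciita was lower by 0.36 (-0.36 ± 0.15; adjusted p = 0.106).

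Over both days Ciita was lower in control fibres by 0.52 (-0.52 ± 0.11 SE; adjusted p = 0.000861 in limma) and H2-Eb1 by 1.17 (-1.17 ± 0.30; adjusted p = 0.00562), where 26.6% of kept probes passed and 17.3% passed as lower. The 11 other probes with the Ciita probe's repeat were gathered after the Ciita values were seen. Of these, 10 read lower in control fibres, with a median difference of -0.40 against -0.05 over all kept probes. Only 8 of the 11 were above background on all 30 arrays, and dim probes carry no direction. Of the 8 kept, 4 passed as lower and 1 as higher. With dim spots at the lowest signal above background the H2-Eb1 difference was -0.15 (adjusted p = 0.642). Neither Cd74 (-0.37 ± 0.29; adjusted p = 0.358) nor H2-DMa (0.19 ± 0.17; adjusted p = 0.446) passed. The probes share the slide difference of this comparison. Among wild-type fibres, day 14 against day 7, 0 of 8 probes passed in limma and 0 had an unadjusted p under 0.05. Of kept probes 2.31% passed there, and slide and day cannot be told apart in it.

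Parts of the interferon and class I lists were higher in control fibres, where 0 of 8 class II probes passed as higher. Over both days 6 of 10 interferon pathway genes passed as higher and 0 as lower, where 9.36% of kept probes were called higher. Irf1 was higher by 2.74 ± 0.29 (SE; adjusted p = 5.87e-07 in limma), Irf8 by 1.95 and Socs1 by 1.70. For Irf1 the second probe was 1.58 higher and did not pass. Of 12 class I genes 4 passed as higher and 0 as lower, among them B2m (by 1.32) and H2-D1 (by 1.12). Irf8 and the brighter Irf1 probe were higher than wild type in control fibres and in MCU fibres of day 7, where the second Irf1 probe was at -0.38. Cd74 stood at -3.38 to -1.87 in the 8 control fibres and 2.06 to 3.93 in the 3 MCU fibres. Control and MCU fibres lay on different slides, and a link between these genes was not tested. Of the 7 other class II and peptide-supply genes 3 passed as higher, among them the lysosomal proteases Ctsl (1.05) and Lgmn (0.91), and 3 as lower, among them H2-Ob (-0.72), the beta chain of the H2-DM inhibitor H2-O. Of the 8 class II transcription factors 0 passed in limma, with 1 at an unadjusted p under 0.05. Cd68, the lysosomal macrophage marker, was 2.22 higher in control fibres (adjusted p = 0.0009706), C1qb was 0.84 higher, and Fcer1g, an adaptor of myeloid receptors, was lower by 1.26 (-1.26). Their part in the result was not tested.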

How the data were processed

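RNA of single fibres was amplified by a whole-transcriptome kit and labelled with Cy3 by random primers, per the labels' protocols, so strand is not kept. The authors' deposited scanner files come from Agilent Feature Extraction 10.7.3.1, per the file headers, and hold a background-corrected intensity for each of 59305 non-control spots. A deposited table of intensity values of the same arrays, whose scale and centring are not stated, served as an alternative; each of its 30 columns matched its own array best.

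Here log2 intensity was set against each array's 75th percentile, outlier spots were dropped and spots of a probe averaged. Group means of 30 arrays were fitted with limma 3.58.1 in R 4.3.3 (22 residual degrees of freedom) and p-values adjusted by Benjamini-Hochberg over 33164 probes, with a threshold of 0.05. On simulated data for silencing at day 7, changes of 1, 2 and 4 log2 units were recovered in 57.4, 81.8 and 100% of cases. Where a gene has several kept probes, the one with the highest mean stands for it. Named genes are all members, Mcu, the 5 most like Cd74, and up to 4 a list by moderated statistic or abundance; others were named after their values were seen. The members and lists were chosen with earlier results of these data known. Probes were named through RefSeq tables of GRCm38.p6 (26425 by accession). A probe that is dim on every array of a group has a bound only: "at least" folds set the bright group's mean against, on each dim array, the lowest signal well above background or the probe's own where higher. The number of arrays limits the precision. Alternatives changed the background, scaling, filter, features, samples, blocks, weights and the treatment of dim spots. A few items that fall under these lists are not reported here.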

Additional observations from a re-analysis of the deposited data

Results flagged for a closer look

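Of 48 groups of 4 fibres checked over the 8 probes, 4 held a fibre far from the others by Dixon's criterion, and chance gives about 1 in 20 groups. H2-Aa was 0.0316 in the first MCU fibre of day 14, against -5.10 to -4.90 in the other 3. Cd74 was -1.82 in the first wild-type fibre of day 7, against -2.23 to -2.21. The first H2-Ab1 probe was -3.93 in the third silenced fibre of day 14, against -2.24 to -1.99. H2-DMb1 was -3.53 in the second silenced fibre of day 14, against -4.88 to -4.75, and all 4 of those spots were dim.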

How the results depend on the processing

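Calls of Ciita in control against wild-type fibres at day 7 and over both days, and the directions of all called values, held under every alternative run. The H2-Eb1 calls did not, and the cause was not tested beyond the dim spots themselves. Over both days, silencing against control gave 0.19 with the normexp background, 0.80 with quantile normalization, 0.89 with median scaling, 0.77 with the deposited value table, 1.02 without the filter or with only the groups compared, 0.87 with array weights and 0.49 with dim spots at the floor, none past the threshold (adjusted p 0.0523 to 0.195). Control against wild type gave -0.071 (normexp) and -0.15 (floor) over both days and -0.18 and -0.10 at day 14, also lost. Cd74 in MCU fibres of day 7 was 3.52 above wild type with normexp. A call was gained for 2 results, Ciita at day 14 in control fibres (quantile, adjusted p = 0.0494; deposited table, 0.0465) and Cd74 under silencing over both days with only the groups compared (0.0302).

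Counts of probes past the threshold moved by over 1.5 times in these cases. With array weights they were 370 for MCU at day 7 (173 in the main analysis), 568 for MCU at day 14 (121), 716 for the change of the silencing effect (1300), 2456 for silencing at day 7 (4214) and 1908 for wild type between days (767). With normexp they were 228 for MCU at day 14 and 1409 for wild type. With only the groups compared they were 72 for MCU at day 14, 416 for the change of the silencing effect, 1104, 195 and 2172 for silencing at day 7, day 14 and both (1201 and 4529 for the latter), and 501 for wild type. MCU at day 14 had 79 without the filter and, in an alternative chosen after seeing the data, 78 without the 2 MCU fibres with Lyz1 and Tyrobp.

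Leaving out 1 fibre at a time gave 44 to 200 probes for MCU at day 14 (lowest without the third wild-type fibre, highest without the second, and 54 to 74 without an MCU fibre), 3226 to 4322 for control against wild type at day 14 (4936), 697 to 1472 for silencing at day 14, 2466 to 3862 at day 7 and 267 to 774 for wild type. The lowest of these came without the third wild-type fibre of day 14, the third silenced fibre of day 14, the third silenced fibre of day 7 and the third wild-type fibre of day 14. Silencing at day 14 also moved this far without the fourth control fibre (780), and wild type between days without the first, the second or the fourth fibre of day 7 (411, 382 and 425) or the fourth of day 14 (386). In an alternative chosen after seeing the data, leaving out the third silenced fibre of day 14 took the genes lower under silencing from 2 to 1 for the macrophage list and from 2 to 1 for the other class II and peptide-supply list, and left class I at 2 and interferon at 3. H2-Eb1 under silencing over both days ranged from 0.87 to 1.19, and Cd74 in MCU fibres from 4.46 to 5.40 at day 7.

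Replicate numbers are shared between groups, but over 14 pairs of same-numbered fibres the correlation of their deviations ran from -0.155 to 0.172, above 0.1 in 4, so the numbers were not taken as a pairing. With the replicate block H2-Eb1 under silencing over both days was 1.01 (adjusted p = 0.0476), 4364 probes passed there, and no call of a member changed. The setting with 1 probe a gene name left out the second H2-Ab1 probe. Spots under an array's lowest signal above background carry no order, which limits H2-Aa, H2-DMb1, H2-Eb1 and the second H2-Ab1 probe outside the MCU fibres.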
